A study of Homo sapiens with 6 samples.

Results

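In U118 glioma cells, 1734 of 10673 measured genes had all 5 siRNA-transfected libraries on the same side of the single untransfected library at day 2. Of these, 857 (8.03% of the genes measured) were higher in every transfected library and 877 (8.22%) were lower in every one. A gene was measured when its mean over the 6 libraries was at least 5 CPM (read counts scaled to library size, with TMM factors), and it became a member when its 5 transfected values were all above or all below that of the untransfected library. Among genes with a symbol, the widest gaps below were in GNA12, BLOC1S6, ZNF324 and MAP2K4, and the widest gaps above were in FAM110A, GMEB2, TFE3 and CSF2. On the higher side AC007192.1 and AC092718.3, which have no symbol in the table used and overlap other genes, had smallest gaps of 1.53 and 0.99 on the log2(CPM + 1) scale, wider than the 0.91 of CSF2. Most member genes differed little, and the untransfected library was the highest or lowest of the 6 less often than any other library. Membership was decided by the values themselves, so all that follows on the members is a description without a test.

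RNA sequencing of poly(A)-selected RNA covered 6 libraries of U118, an established line from a human malignant glioma. One library is labelled WT, with no siRNA named, and is taken as untransfected; 1 is labelled siNC, taken as a control siRNA; and 4, siRIPK2_1 to siRIPK2_4, were given an siRNA that targets RIPK2, the adaptor kinase through which the bacterial sensors NOD1 and NOD2 activate NF-kB. All were collected on day 2 in the same medium with serum and antibiotics. The labels do not say whether WT cells were mock-treated, nor whether the 4 siRIPK2 libraries are different siRNAs, separate cultures or repeats. The 5 transfected libraries therefore share transfection, but 4 of them also share the RIPK2 knockdown.

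Small interfering RNAs are usually carried into cells by a lipid reagent that passes through endosomes and lysosomes. Inside the cell the guide strand is loaded into Argonaute proteins, which also carry the cell's own microRNAs, and it can lower transcripts with a match to its seed. Double-stranded RNA and the carrier can also set off interferon, NF-kB and stress programmes, so transcripts of those programmes, of the small RNA machinery and of the endosomal and lysosomal system were described as lists. The lists were chosen with earlier results of these data known.

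Total counts ranged from 33540619 to 45309423, and 3 counts, used as the floor, equalled 0.0667 to 0.0934 CPM, which covers counting error only. RIPK2 stood at 56.8 CPM in WT, 43.4 CPM in siNC and 3.86, 11.8, 6.29 and 4.32 CPM in siRIPK2_1 to siRIPK2_4. It was thus itself a member on the lower side, with a siRIPK2 mean of 11.6% of WT. The labels call the cells astroblastoma cells. Of 18 glioma and astroglia markers 9 were measured, among them VIM, CD44, EGFR and TNC, while GFAP was at 0.999 CPM in WT and 0.533 to 1.09 CPM after transfection, and AQP4 was listed at 0 in all 6 libraries. Of 15 macrophage and microglia markers only CD68 was measured. Of the markers of neurons and oligodendrocytes 2 of 12 were, of endothelium 1 of 10 and of epithelium 0 of 11. In bulk RNA, fewer cells of a type and less RNA per cell cannot be told apart.

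WT was the library least often at the extreme. It was the highest or lowest of the 6 in 16.25% of genes, against 32.46% for siNC and 43.98%, 34.55%, 39.95% and 32.8% for siRIPK2_1 to siRIPK2_4. In 71 genes the gap between WT and the nearest transfected library was wider than the whole range of the 5 transfected libraries on the log2(CPM + 1) scale. The same measure, chosen after values were seen, gave 450 genes for siNC and 777, 339, 586 and 389 for the 4 siRIPK2 libraries in order. Genes at least 2-fold from all 5 others numbered 11 for WT, 96 for siNC, and 172, 77, 125 and 125 for the siRIPK2 libraries in order. The number of genes that set WT apart was thus below the number that set each transfected library apart from the remaining 5. All 5 differences of a gene share the 1 WT value, so an unusual value in that library alone puts all 5 on one side.

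**Figure D1:**
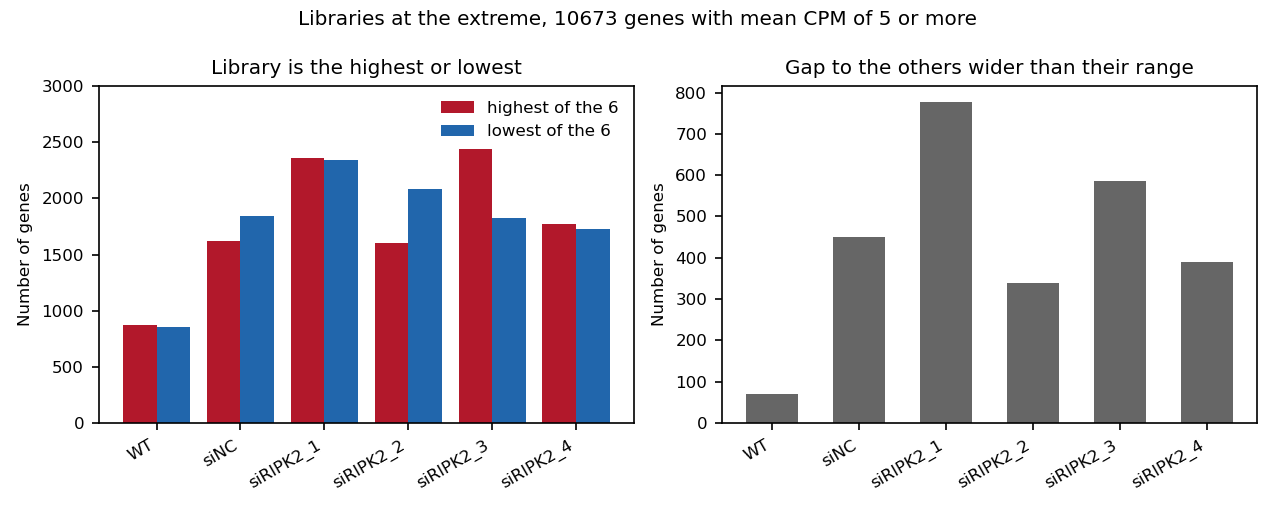
Bars give, for each library, the number of the 10673 measured genes in which it was the highest (red) or lowest (blue) of the 6 libraries (left), and in which its gap to the nearest other library was wider than the range of the other 5 on the log2(CPM + 1) scale (right). WT has the shortest bars in both panels, with 877 highest, 857 lowest and 71 set apart.

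Most of the differences were small. The gap between WT and the nearest transfected library was under 0.1 on the log2(CPM + 1) scale for 429 higher genes (50.1% of them) and 507 lower genes (57.8%). With a gap of at least 1.5-fold in CPM in all 5 libraries, 28 genes were higher (0.262% of the measured genes) and 20 lower (0.187%). At 2-fold, 7 were higher (0.0656%) and 4 lower (0.0375%). A fit in edgeR of the 5 transfected libraries against WT, with a lone WT library assumed to vary as they do, called 0 of 14306 genes (0%) at an adjusted p of 0.05. The edgeR fit took siNC and the siRIPK2 libraries as 1 group, so the difference between them is part of its spread. Genes with an unadjusted p under 0.05 were fewer than the 1 in 20 that this threshold allows by chance. DESeq2 called 6 genes, 4 higher and 2 lower, and limma-voom called 1 lower gene. For a single gene, an exact permutation of 1 library against 5 cannot give a p below 0.167.

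GNA12 had the widest gap of the genes with a symbol on either side. It encodes the alpha subunit of a heterotrimeric G protein that couples receptors to activators of the small GTPase RHOA. GNA12 (ENSG00000146535, chr7:2728112-2844324, minus strand, GRCh38) was at 272 CPM in WT, 48.3 CPM in siNC and 72.7, 45.1, 54.4 and 65.8 CPM in siRIPK2_1 to siRIPK2_4. The 5 transfected values lay close to one another and none came near WT, and siNC was within the range of the siRIPK2 libraries. Their mean of 57.2 ± 11.7 CPM (SD, n = 5) was 21.0% of WT. GNA13, the other member of this G protein family and picked for that after its value was seen, did not follow: it was at 79.5 CPM in WT and between 66.1 and 103.5 CPM after transfection.

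BLOC1S6 encodes pallidin, a subunit of the BLOC-1 complex, which sorts endosomal cargo towards lysosome-related organelles. BLOC1S6 (ENSG00000104164, chr15:45587123-45615999, plus strand) was at 54.6 CPM in WT, 13.7 CPM in siNC and 11.5, 16.1, 5.55 and 7.29 CPM in siRIPK2_1 to siRIPK2_4. Every transfected library was well below WT, while they differed among themselves by almost as much as the gap on a log scale. The mean was 10.8 ± 4.39 CPM (SD, n = 5), or 19.8% of WT. A listed gene that overlaps BLOC1S6 added little: summed with it, the level was 55.0 CPM in WT and 5.87 to 16.3 CPM after transfection.

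MAP2K4 encodes MKK4, a kinase that activates the stress kinases JNK and p38. MAP2K4 (ENSG00000065559, chr17:12020824-12143830, plus strand) was at 29.5 CPM in WT, 12.7 CPM in siNC and 12.5, 8.19, 11.6 and 8.77 CPM in siRIPK2_1 to siRIPK2_4. All 5 transfected values were below WT, as in every lower member, and their mean of 10.8 ± 2.11 CPM (SD, n = 5) was 36.4% of WT. MAP2K7, which encodes the companion JNK kinase and was likewise added after values were seen, was at 58.1 CPM in WT and between 41.3 and 89.5 CPM after transfection, on both sides of WT.

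On the higher side, TFE3 encodes a transcription factor of the MiT/TFE family, which drives lysosomal and autophagy genes. TFE3 (ENSG00000068323, chrX:49028726-49043486, minus strand) was at 62.4 CPM in WT, 150.4 CPM in siNC and 139.6, 168, 202 and 154 CPM in siRIPK2_1 to siRIPK2_4. All 5 transfected libraries were more than 2-fold above WT, with siNC inside the range of the siRIPK2 libraries. The mean was 163 ± 24.0 CPM (SD, n = 5), a ratio of 2.61 to WT. Its relatives, added after values were seen, did not move with it: MITF was at 7.77 CPM in WT and 5.92 to 15.4 CPM after transfection, and TFEB at 2.39 CPM in WT and 1.20 to 3.93 CPM.

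GMEB2 encodes a protein that binds the glucocorticoid modulatory element and alters the response to steroid. GMEB2 (ENSG00000101216, chr20:63587602-63627041, minus strand) was at 20.9 CPM in WT, 59.7 CPM in siNC and 48.8, 67.0, 77.8 and 71.1 CPM in siRIPK2_1 to siRIPK2_4. Its transfected values were tightly grouped above WT, at a mean of 64.9 ± 11.1 CPM (SD, n = 5) and a ratio of 3.10. For GMEB1, its partner, named after its value was seen, WT at 16.7 CPM lay inside the transfected range of 15.3 to 23.3 CPM.

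MICB encodes a stress-induced surface ligand of the NKG2D receptor of natural killer and T cells. MICB (ENSG00000204516, chr6:31494881-31511124, plus strand) was at 20.3 CPM in WT, 51.8 CPM in siNC and 67.9, 52.8, 62.4 and 38.6 CPM in siRIPK2_1 to siRIPK2_4. Its lowest transfected value, in siRIPK2_4, was still well above WT, and the mean of 54.7 ± 11.2 CPM (SD, n = 5) was 2.70 times WT. MICA, its near copy, was at 26.3 CPM in WT and 26.9 to 38.5 CPM after transfection, also on the higher side but by little in siRIPK2_4. Because the 2 genes are alike in sequence, reads may have been shared between them in a way that these counts do not show.

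The promoters of TFE3 and GNA12 are shown as one example from each side of WT, to compare the letters near the start of a higher and a lower gene. For GNA12, which has a second listed start, the one at the annotated 5′ end was taken. Each covers 250 bases before to 50 bases after the start (RefSeq, GRCh38.p14), on the gene's own strand, and capitals mark GC boxes (GGGCGG on either strand, overlapping matches counted).
TFE3 chrX:49043308-49043607: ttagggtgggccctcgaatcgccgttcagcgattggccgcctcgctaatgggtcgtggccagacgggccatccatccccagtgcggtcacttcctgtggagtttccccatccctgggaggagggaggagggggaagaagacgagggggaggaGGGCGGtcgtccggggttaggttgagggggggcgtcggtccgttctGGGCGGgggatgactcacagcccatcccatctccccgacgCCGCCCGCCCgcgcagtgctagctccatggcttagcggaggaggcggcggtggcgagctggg
GNA12 chr7:2844259-2844558: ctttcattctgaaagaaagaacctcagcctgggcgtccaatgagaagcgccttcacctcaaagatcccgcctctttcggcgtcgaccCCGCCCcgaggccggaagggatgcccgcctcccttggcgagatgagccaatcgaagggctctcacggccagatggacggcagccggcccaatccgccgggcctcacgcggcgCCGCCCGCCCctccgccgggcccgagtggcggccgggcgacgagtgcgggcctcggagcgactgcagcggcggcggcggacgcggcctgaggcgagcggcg
The TFE3 window holds 4 GC boxes and the GNA12 window 3, so this motif is in both. Over all genes, 67.6% of 1040 promoters of higher genes and 69.6% of 1067 promoters of lower genes held it, against 67.0% of 12971 promoters of measured genes and 44.95% of 35116 promoters in the table. The E-box CACGTG was in 9.81% of the higher and 11.3% of the lower promoters, against 9.47% of the measured ones, and in neither of the printed windows. CCAAT was in 35.2% and 35.3%, against 35.2%, with 3 matches in the GNA12 window and 1 in the TFE3 window. The AP-1 motif TGANTCA was in 6.15% of the higher and 4.31% of the lower promoters, against 5.17% of the measured ones, and once in the TFE3 window. The CRE motif TGACGTCA was in 2.88% and 3.47%, against 2.83%, and in neither window. Over all promoters in the table the shares were 7.26% for the E-box, 34.6% for CCAAT, 7.71% for AP-1 and 1.85% for CRE, with every motif searched on both strands. The motifs were chosen after the members' values were seen, and a match is a description of the letters only.

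**Figure D2:**
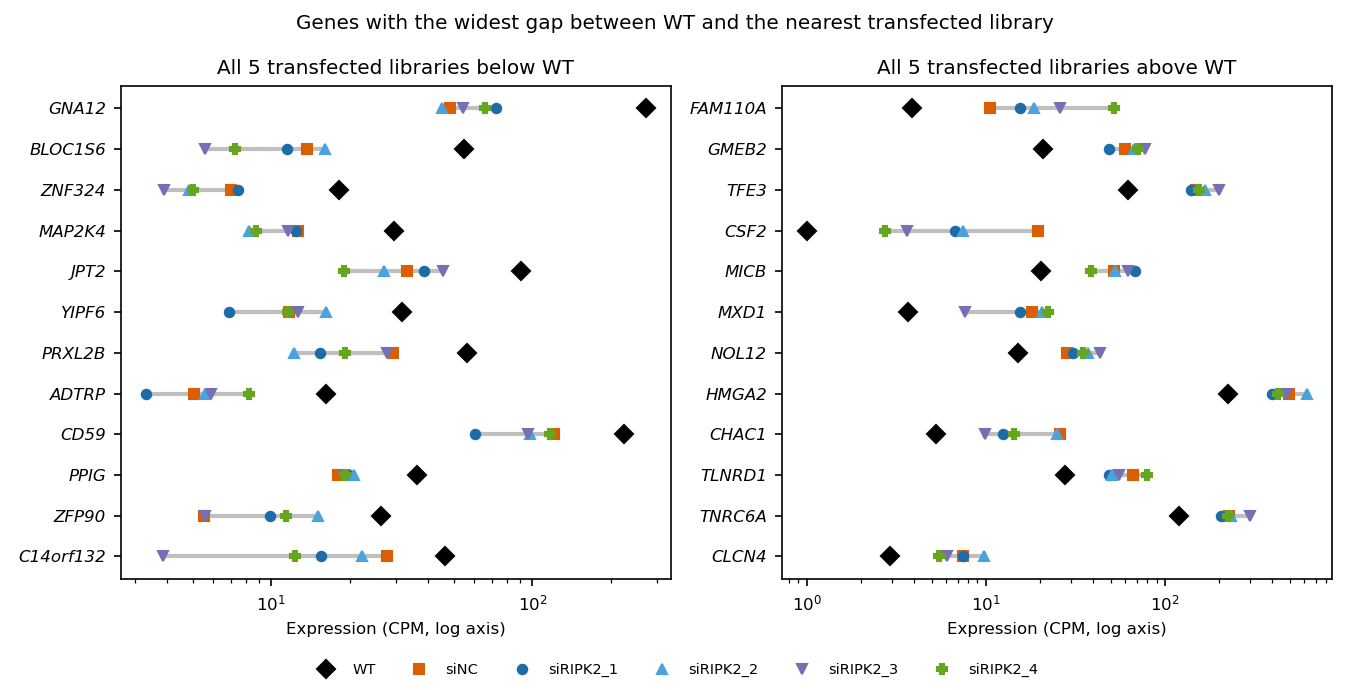
Each row is one of the 12 genes with a symbol per side that had the widest gap, on the log2(CPM + 1) scale, between WT (black diamond) and the nearest of the 5 transfected libraries (coloured symbols, joined by a grey bar over their range); the horizontal axis is CPM on a log axis, and AC007192.1 and AC092718.3, without a symbol, are not drawn. GNA12 and PPIG have short bars far from WT, whereas C14orf132, FAM110A and CSF2 have long bars.

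Among the other genes with wide gaps on the higher side, the spread between transfected libraries set them apart from one another. FAM110A was at 3.86 CPM in WT, 10.6 CPM in siNC and 15.5, 18.6, 25.9 and 52.2 CPM in siRIPK2_1 to siRIPK2_4, so its lowest transfected value was siNC. CSF2, which encodes the growth factor GM-CSF, had its highest value there instead, with 0.999 CPM in WT, 19.7 CPM in siNC and 6.78, 7.51, 3.62 and 2.75 CPM in the siRIPK2 libraries. MXD1, a partner of MAX that opposes MYC, was at 3.66 CPM in WT, 18.2 CPM in siNC and 15.5, 20.6, 7.62 and 22.3 CPM. CHAC1, a glutathione-degrading enzyme induced by ATF4, was at 5.27 CPM in WT and 9.89 to 26.0 CPM after transfection. TLNRD1, an actin-bundling protein related to talin, was at 27.9 CPM and 48.6 to 80.1 CPM, and CLCN4, a chloride and proton exchanger of endosomes, at 2.91 CPM and 5.47 to 9.84 CPM. In all of these WT lay below the transfected range, as membership requires. For FAM110A and CSF2 that range was itself wide.

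On the lower side, ZNF324, a zinc finger gene, was at 18.2 CPM in WT, 7.04 CPM in siNC and 7.46, 4.82, 3.89 and 5.00 CPM in siRIPK2_1 to siRIPK2_4, and its mean was 31.1% of WT. PPIG, a nuclear cyclophilin, was the most even, with 36.3 CPM in WT, 18.1 CPM in siNC and 19.9, 20.7, 19.1 and 19.1 CPM in the siRIPK2 libraries. CD59, an inhibitor of the complement attack complex, was at 225 CPM in WT and 60.2 to 121 CPM after transfection. YIPF6, a Golgi membrane protein, was at 31.6 CPM and 6.88 to 16.2 CPM, and JPT2 at 90.8 CPM and 18.9 to 45.5 CPM. PRXL2B, a thioredoxin-like enzyme, was at 56.1 CPM and 12.2 to 29.3 CPM, and ADTRP, a lipid hydrolase, at 16.2 CPM and 3.30 to 8.22 CPM. The zinc finger gene ZFP90 was at 26.3 CPM and 5.54 to 15.1 CPM, and C14orf132 at 46.3 CPM and 3.84 to 27.9 CPM. PPIG stayed within 18.1 and 20.7 CPM over all 5 transfected libraries, whereas C14orf132 ranged widely, with siRIPK2_3 lowest.

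NOL12, one of the 12 genes with a symbol that had the widest gaps on the higher side, overlaps another listed gene. NOL12 (ENSG00000273899, chr22:37681673-37693478, plus strand), a nucleolar protein gene, was at 15.2 CPM in WT, 28.5 CPM in siNC and 30.7, 37.5, 43.3 and 34.9 CPM in siRIPK2_1 to siRIPK2_4. Z83844.1 (ENSG00000100101, chr22:37686414-37726503, plus strand), a listed gene that overlaps it on the same strand, was at 20.5 CPM in WT and had 0 counts in all 5 transfected libraries, at least 219.9-fold lower against a floor of 3 counts per library. Summed, the pair was at 35.7 CPM in WT and 28.5 to 43.3 CPM after transfection, so the sum lay on both sides of WT. Z83844.1 also overlaps TRIOBP, and with TRIOBP added the sum was 231 CPM in WT and 142 to 285 CPM after transfection. AC138696.1 (ENSG00000264668) went the other way, with 0 counts in WT and 2.34 to 3.11 CPM after transfection, at least 28.2-fold higher, but summed with ZFP41 and GLI4, which overlap it, WT was at 39.0 CPM and the transfected libraries at 31.1 to 38.7 CPM. AC007192.1 and AC092718.3 were at 1.44 and 1.36 CPM in WT and at means of 9.18 and 6.55 CPM after transfection. With its neighbours PIK3R2 and IFI30, AC007192.1 summed to 308 CPM in WT and 161 to 320 CPM after transfection. AC092718.3 and its neighbours summed to 30.7 CPM and 25.4 to 40.3 CPM. These sums lay on both sides of WT, but as with AC138696.1 most of each came from the neighbours. Such a sum says little about the gene itself. Z83844.1 and AC138696.1 had means under 5 CPM over the 6 libraries, so they are neither measured genes nor members here. AC007192.1 and AC092718.3 passed that filter and are members. These 4 genes were picked after their values were seen; 3 of the 6 DESeq2 calls were Z83844.1, AC138696.1 and AC007192.1, and the others were GNA12, GMEB2 and TFE3. How the counting divided reads between overlapping genes was not tested. Of 91 named genes 21 overlap another listed gene, and 4 of those (NOL12, BORCS8, IFIT2 and BNIP3L) left their side of WT when summed.

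**Figure D3:**
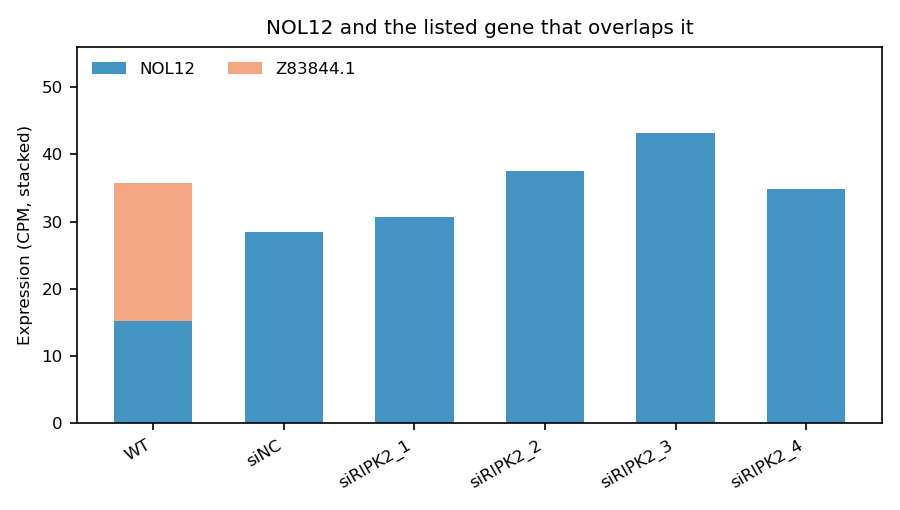
Stacked bars give CPM of NOL12 (blue) and of Z83844.1, the listed gene that overlaps it (orange), in each library. TRIOBP, which also overlaps Z83844.1, is not drawn. Orange is present in WT alone, at 20.5 CPM, and the stacked WT bar of 35.7 CPM falls among the transfected bars of 28.5 to 43.3 CPM.

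Across the 24 pathway lists, 590 of 661 distinct genes were measured, and 53 (8.98%) were higher and 59 (10.0%) lower in all 5 libraries, near the 8.03% and 8.22% of all measured genes. The median of all genes was -0.03 in log2(CPM + 1) for the mean of the transfected libraries minus WT. List medians below are on that scale. Of all measured genes 16.25% were one-sided, the share beside which each list count stands. The lists that hold GNA12, BLOC1S6, MAP2K4, TFE3, GMEB2 or MICB count that marker, which was known to be a member when the lists were chosen.

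The machinery of small RNAs had more higher than lower members. Of 18 measured genes 5 were higher and 1 lower, together 33.3% against 16.25% of all. The median was 0.12, with library medians from 0.07 to 0.35. TNRC6A, the scaffold that Argonaute proteins use to silence transcripts, was at 120 CPM in WT, 230.0 CPM in siNC and 206, 234, 299.9 and 226 CPM in siRIPK2_1 to siRIPK2_4, a clear gap from WT in every library. TARBP2, a partner of Dicer, was at 36.1 CPM in WT and 39.7 to 54.5 CPM after transfection, and RAN, the GTPase that drives export of microRNA precursors among other cargo, at 288 CPM and 311 to 432 CPM. DICER1 and XPO5 were the other higher genes. TSN, which encodes translin, a nuclease subunit that helps clear the passenger strand, was lower, at 69.7 CPM in WT, 39.8 CPM in siNC and 42.3, 20.1, 39.1 and 36.3 CPM in siRIPK2_1 to siRIPK2_4.

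TFE3 itself was higher, while its list had more lower than higher members. In the list of MiT/TFE factors, lysosome and autophagy, 2 of 30 measured genes were higher and 6 lower, together 26.7% against 16.25% of all. The median was -0.17, with library medians from -0.19 to -0.01. The lysosomal proteases CTSB and CTSD were at 1266 and 1327 CPM in WT and at 837 to 1105 and 663 to 1275 CPM after transfection. NPC1, a lysosomal cholesterol transporter, was at 654 CPM in WT and 438 to 612 CPM. LAMP2, RRAGC and MAP1LC3B were the remaining lower genes, and ATP6V0D1, a proton pump subunit, the other higher one. In the BLOC-1 and lysosome-related organelle list 0 of 22 were higher and 5 lower, together 22.7% against 16.25% of all. The median was -0.09, with library medians from -0.27 to 0.06 and siRIPK2_2 above WT. Beside BLOC1S6, the lower genes included HPS3, at 82.7 CPM in WT and 26.9 to 68.5 CPM after transfection. HPS4 was lower too, at 88.1 CPM and 56.1 to 81.6 CPM. In the endocytosis list 2 of 32 were higher and 4 lower, together 18.75% against 16.25% of all measured genes, and the median was -0.07, with library medians on both sides of WT, from -0.11 to 0.06. VPS26A, a subunit of the retromer coat, had the widest gap there, with 60.8 CPM in WT, 21.2 CPM in siNC and 27.5, 34.8, 33.7 and 37.8 CPM in siRIPK2_1 to siRIPK2_4. CLTB, a clathrin light chain, was at 62.6 CPM and 26.5 to 53.2 CPM, and RAB11A, a GTPase of recycling endosomes, at 80.6 CPM and 26.2 to 77.1 CPM.

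In G12/13 and RHOA signalling, the list around GNA12, 2 of 28 measured genes were higher and 5 lower, together 25.0% against 16.25% of all. That share counts GNA12 itself. The median was -0.08 and library medians ran from -0.18 to -0.03, all below WT. The related SRF cofactors lay on opposite sides: MRTFA was at 48.7 CPM in WT and 59.1 to 85.4 CPM after transfection, and MRTFB at 47.1 CPM in WT and 16.3 to 37.7 CPM. DIAPH1, an actin nucleator that RHOA activates, was at 202 CPM and 128 to 179.8 CPM. In the stress MAP kinase cascade, MAP2K4 was the only one of 28 measured genes on one side, with a median of -0.07.

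NF-kB targets held the highest share of one-sided members of the 24 lists. Of 20 measured genes 8 were higher and 0 lower, with a median of 0.42. The siNC library had a median of 1.04, and siRIPK2_1 to siRIPK2_4 had 0.09, 0.34, 0.31 and 0.11, so siNC stood well above the others. BIRC3, an inhibitor of cell death, was at 13.04 CPM in WT, 45.3 CPM in siNC and 27.2, 19.4, 15.6 and 19.7 CPM in siRIPK2_1 to siRIPK2_4. NFKB2 was at 60.2 CPM in WT, 120.3 CPM in siNC and 63.2 to 88.2 CPM in the siRIPK2 libraries, and RELA at 98.7 CPM in WT and 102.5 to 113 CPM after transfection. RELB, TNFAIP3, TRAF1 and LIF were the other higher genes besides CSF2. In several of them the lowest siRIPK2 library was close to WT, as in TRAF1 at 12.4 CPM in WT and 12.7 CPM in siRIPK2_4.

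Interferon and RNA-sensing genes were evenly divided. Of 33 measured, 2 were higher and 2 lower, with a median of -0.0038 and library medians of -0.05 to 0.17. OASL was at 4.25 CPM in WT and 5.31 to 6.85 CPM after transfection, and IFIT2 at 7.05 CPM and 8.93 to 15.97 CPM. SAMD9L was lower, at 24.2 CPM in WT and 7.48 to 21.0 CPM, and so was IFI44, at 95.4 CPM and 49.6 to 94.8 CPM, where siRIPK2_4 all but met WT. In the list of HLA class I and NKG2D ligands 4 of 19 were higher and 1 lower, together 26.3% against 16.25% of all (median 0.05). Beside MICB and MICA these were the peptide transporter TAP1, at 73.8 CPM in WT and 77.1 to 106 CPM, and its partner TAPBP, at 72.9 CPM and 77.3 to 102 CPM, while the ligand RAET1G was lower, at 6.52 CPM and 4.20 to 5.67 CPM.

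Of 28 measured genes of cholesterol and fatty acid synthesis 0 were higher and 8 lower, together 28.6% against 16.25% of all. The median was -0.20, but the library medians ran from -0.32 to 0.07 and siNC was the one above WT. INSIG1, which retains the sterol sensor in the endoplasmic reticulum, was at 60.7 CPM in WT, 41.2 CPM in siNC and 42.2, 16.2, 20.9 and 26.5 CPM in siRIPK2_1 to siRIPK2_4. SC5D and MVD, both enzymes of the pathway, were at 18.6 and 47.0 CPM in WT and at 6.57 to 14.9 and 28.3 to 40.4 CPM after transfection. In the integrated stress and unfolded protein response list 1 of 28 was higher (CHAC1) and 7 lower, together 28.6% against 16.25% of all. The median was -0.18, with library medians from -0.46 to 0.08, where siRIPK2_2 was the one above WT. XBP1, a transcription factor of that response, was at 193 CPM in WT, 140.5 CPM in siNC and 58.1, 158, 103 and 84.5 CPM in siRIPK2_1 to siRIPK2_4. HERPUD1 was at 221 CPM and 69.1 to 196 CPM, and the chaperone PDIA4 at 611 CPM and 232 to 544 CPM.

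**Figure D4:**
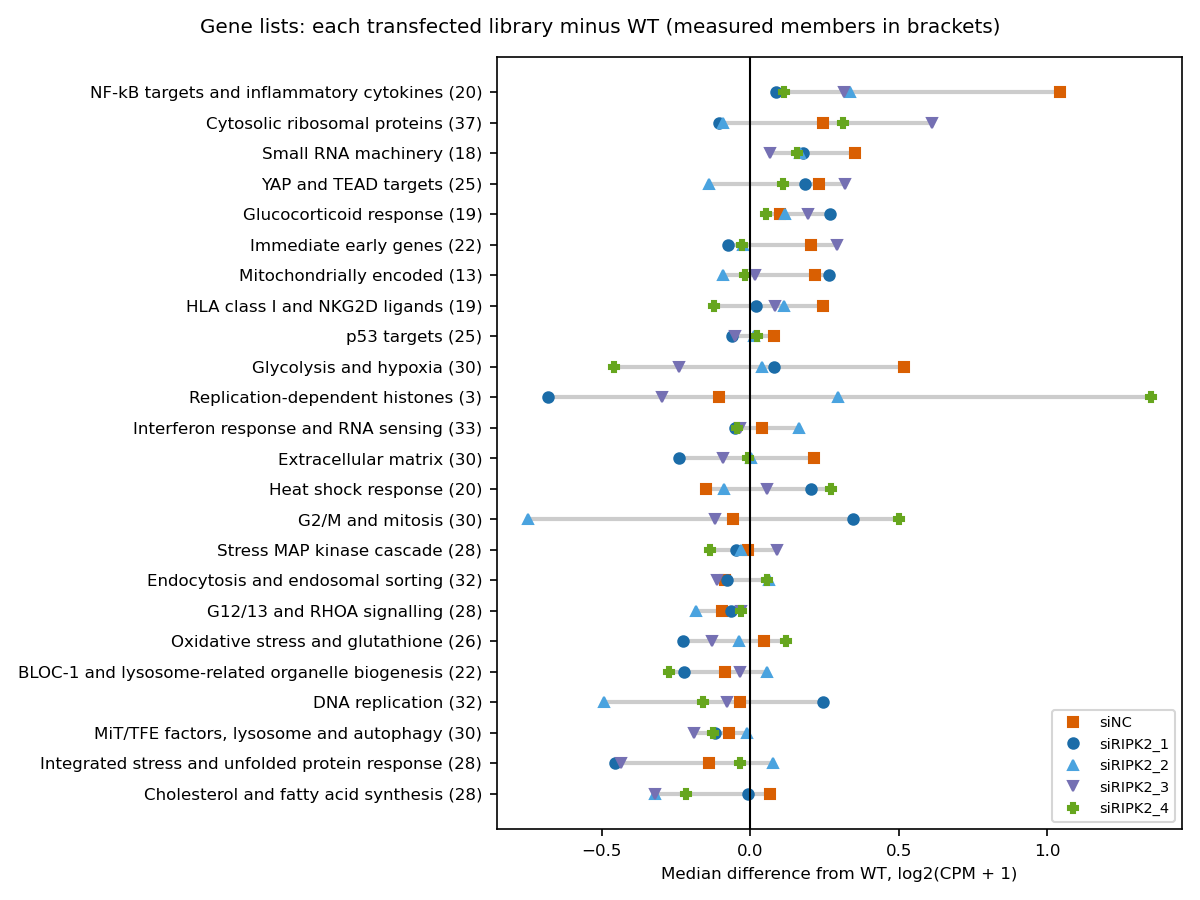
For each pathway list, symbols give the median difference of its measured members from WT in log2(CPM + 1), one symbol per transfected library, with the number of measured members in brackets and a line at 0 for WT. All 5 symbols lie to the right of WT for NF-kB targets, small RNA machinery and glucocorticoid response, and all 5 lie to the left for G12/13 and RHOA signalling and for the MiT/TFE list.

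Lists of other stress and growth programmes had members on both sides. Immediate early genes had 3 of 22 higher and 3 lower, together 27.3% against 16.25% of all. FOSL2, an AP-1 subunit, was at 366 CPM in WT and 158 to 259 CPM after transfection. The phosphatase DUSP5 was at 71.3 CPM and 89.5 to 210.5 CPM. Targets of p53 had 4 of 25 higher and 3 lower. CCNG1, which encodes cyclin G1, was at 29.1 CPM in WT, 14.1 CPM in siNC and 14.4, 16.2, 11.7 and 18.4 CPM in siRIPK2_1 to siRIPK2_4, and the kinase PLK3 at 25.4 CPM in WT and 33.5 to 40.6 CPM. Extracellular matrix genes had 3 of 30 higher and 4 lower, with SPARC at 426 CPM in WT and 573 to 795 CPM, and LUM at 35.9 CPM and 20.4 to 29.2 CPM. YAP and TEAD targets had 4 of 25 higher and 1 lower, with F3, which encodes tissue factor, at 19.1 CPM and 22.7 to 71.7 CPM. YAP1 itself was the lower one, at 261 CPM in WT and 187 to 241 CPM.

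Cell cycle lists did not separate WT from the transfected libraries. G2/M and mitosis had 1 of 30 genes higher and 1 lower, with library medians from -0.75 in siRIPK2_2 to 0.50 in siRIPK2_4. DNA replication had 0 of 32 higher and 3 lower, among them MCM3, a helicase subunit, at 222 CPM in WT and 150.4 to 196 CPM. Glycolysis and hypoxia had 3 of 30 on each side. Oxidative stress and glutathione had 1 of 26, the lower gene GCLM, at 86.2 CPM in WT, 74.5 CPM in siNC and 64.8, 76.4, 66.9 and 6.05 CPM in siRIPK2_1 to siRIPK2_4, where the last library stood far below the rest. Heat shock genes had 2 of 20 higher and 0 lower, by gaps under 0.03, and cytosolic ribosomal proteins 2 of 37 and 0. Glucocorticoid response genes had 2 of 19 higher, GMEB2 and CEBPD, the second at 7.96 CPM in WT and 7.97 CPM in siNC. Of 13 mitochondrially encoded genes 3 were higher, and of 3 measured histone genes 0 were on one side.

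HMGA2, an architectural chromatin protein and a textbook target of the let-7 microRNAs, was among the 12 widest gaps on the higher side among genes with a symbol. HMGA2 (ENSG00000149948, chr12:65824131-65966295, plus strand) was at 226 CPM in WT, 496 CPM in siNC and 398, 623, 479 and 427 CPM in siRIPK2_1 to siRIPK2_4. Every transfected library was well above WT and siNC was inside the siRIPK2 range, with a mean of 484 ± 87.1 CPM (SD, n = 5) and a ratio of 2.14. Its 3′ UTR (GENCODE 29, GRCh38) has 4 matches to the let-7 seed, shown with 14 bases before and 7 after, the match in capitals, below the microRNA with its seed (bases 2 to 8) in capitals.
let-7a-5p: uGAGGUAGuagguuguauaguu
HMGA2 site 1 chr12:65963299-65963326: ccaacgttcgatttCTACCTCagcagca
HMGA2 site 2 chr12:65964534-65964561: cccactactcaataCTACCTCtgaatgt
HMGA2 site 3 chr12:65964946-65964973: tgacttgcaaagacCTACCTCcagactt
HMGA2 site 4 chr12:65965799-65965826: atcaaaacacactaCTACCTCttaagtc
IGF2BP2, another gene often named with let-7 and picked after its value was seen, has 1 match and was at 58.3 CPM in WT and 79.2 to 101.8 CPM after transfection. For CCNJ, a cyclin gene looked up in the same way, the search of 1 representative transcript per gene gave no match. Other transcript forms were not searched. CCNJ was at 7.10 CPM in WT and 11.8 to 16.3 CPM after transfection. A match shows the letters only, and no microRNA was measured here.

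For seed matches over all members, the 3′ UTR of 1 representative coding transcript (GENCODE 29) for each of 10584 measured genes was searched for the 7-base match of 19 microRNA families found in the RefSeq table, chosen after members' values were seen. In 14 of 19 families a match was more common among higher than lower genes, and the difference ranged from -3.87 to 10.02 percentage points. The families at both ends are shown with their seeds in capitals.
miR-29a-3p: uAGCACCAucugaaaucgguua
miR-125b-5p: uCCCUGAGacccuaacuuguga
miR-16-5p: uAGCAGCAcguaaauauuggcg
miR-1-3p: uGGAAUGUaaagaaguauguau
miR-155-5p: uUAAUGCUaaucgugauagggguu
A miR-29a-3p match was in 22.0% of 847 higher and 11.9% of 871 lower genes, against 15.6% of all. For miR-125b-5p the shares were 20.7% and 13.3%, for miR-16-5p 27.6% and 20.7%, and for let-7a-5p 13.1% and 7.81%, against 10.1% of all. In the other direction stood miR-155-5p, with 9.68% and 13.6%, and miR-1-3p, with 10.7% and 14.5%. Base composition moved with this: higher genes had a median GC content of 51.8% and lower genes 46.3%, against 48.7% of all. The 7-base matches at the top have 4 or 5 G or C letters and those of miR-1-3p and miR-155-5p have 3 and 2. Families between these ends did not keep to that order. The difference was 1.3 points for miR-34a-5p with 5 such letters, -0.33 for miR-122-5p with 4 and 0.17 for miR-21-5p with 2. The part of base composition in these shares was not tested. The median 3′ UTR length was 1204 bases in higher, 1170 in lower and 1172 in all measured genes. Genes with a match had longer 3′ UTRs than genes without one. The medians were 2907 against 1057 bases for let-7a-5p and 2760 against 987.5 bases for miR-29a-3p. A comparison of genes with and without a match thus also compares long with short 3′ UTRs, and the part of length was not tested. Genes with a let-7a-5p match had a median difference from WT of 0.01 and those without one of -0.03, so even where shares differed the levels differed little.

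**Figure D5:**
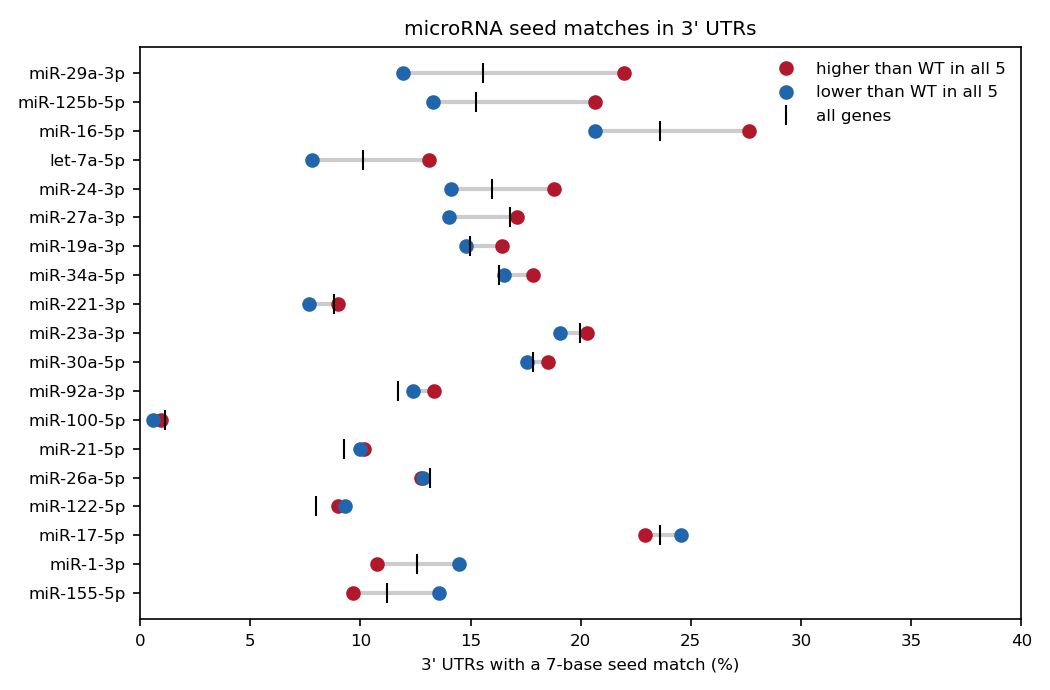
For each of 19 microRNA families, dots give the percentage of 3′ UTRs with a 7-base seed match among genes higher (red) or lower (blue) than WT in all 5 transfected libraries, and a tick gives that of all measured genes. Red lies furthest to the right of blue for miR-29a-3p, at 22.0% against 11.9%, and furthest to its left for miR-155-5p.

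The 2 sides also differed in level, with a median expression of 47.8 CPM in higher, 27.2 CPM in lower and 39.7 CPM in all measured genes. Overlap with another listed gene was found at similar shares, in 32.1% of higher, 32.4% of lower and 31.3% of all genes. The transfected library nearest to WT was most often siRIPK2_2, for 248 higher and 215 lower genes. By position, chromosome 13 had 12.97% of its 185 measured genes lower and 2.70% higher, against 8.22% and 8.03% of all measured genes. Chromosome 13 was not alone in its lower share, which was slightly larger on chromosome 21 and was 11.67% on chromosome 14. Other chromosomes leaned the other way, such as chromosome 9, with 7.18% lower and 10.42% higher. Whether shares differed between chromosomes was not tested. CD68, the single measured macrophage marker, was lower, at 164 CPM in WT and 91.1 to 147 CPM after transfection, while PTPRC, AIF1, TYROBP and P2RY12 were at or near 0 in all 6 libraries. At the edge of the filter, ANAPC10 and DCLK1 were just inside, at means of 5.007 and 5.009 CPM, and C3orf52 and SERF1A just outside, at 4.99 and 4.97 CPM. These 4 genes were picked from those with all 5 transfected values on one side of WT.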

How the data were processed

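The authors deposited 1 table of raw read counts per Ensembl gene for the 6 libraries, not normalised. The tools named in the submitters' processing notes are HISAT2, bedtools, Trimmomatic and FastQC, with the build GRCh38. Their versions, the annotation and the strand setting are not stated there, so overlapping or antisense genes cannot be told apart. Of 20263 IDs, 19761 had a symbol and 20224 were in GENCODE 29 (coordinates, length, GC content, 3′ UTRs); 5320 overlap another listed gene. Counts were scaled to CPM with TMM factors (edgeR 4.0.16, R 4.3.3), and differences are on the log2(CPM + 1) scale. Beside the one-sided counts, edgeR's quasi-likelihood test (filterByExpr, minimum count 10, Benjamini-Hochberg) set the 5 transfected libraries against WT. With 1 WT library, the 4 residual degrees of freedom rest on the spread among transfected libraries, which may be technical. That spread also holds the difference between siNC and the siRIPK2 libraries, since they were fitted as 1 group. DESeq2 1.42.0 and limma 3.58.1 were alternatives, and the tests were tested on simulated data.

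Members and lists were chosen with earlier results of these data known. The named genes were the 6 markers, up to 12 per side by the smallest of a gene's 5 differences from WT, and up to 4 one-sided members of each list. Relatives of the markers, remaining list members, overlapping genes, motifs, microRNA families and let-7 targets were added after values were seen. The microRNA search began from 20 names; miR-155-5p replaced miR-100-5p in a second version, both are now included, and miR-10b-5p and miR-124-3p were not matched.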

Additional observations from a re-analysis of the deposited data

Results flagged for a closer look

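Within the transfected libraries, 8 of 230 checks for 1 library far from the others were positive (3.48%), where chance flags about 1 in 20 groups. GCLM, which encodes a subunit of the enzyme that starts glutathione synthesis, was at 6.05 CPM in siRIPK2_4 against 64.8 to 76.4 CPM in the other transfected libraries, and stood apart both among the 5 transfected and among the 4 siRIPK2 libraries. HPS3 was at 26.95 CPM in siRIPK2_1 against 53.2 to 68.5 CPM in the others. TSN was at 20.12 CPM in siRIPK2_2 against 36.3 to 42.3 CPM. CTSB was at 997.9 CPM in siRIPK2_2 against 837 to 856 CPM in the other siRIPK2 libraries. Among list medians in log2(CPM + 1) against WT, NF-kB targets were at 1.044 in siNC against 0.09 to 0.34 in the siRIPK2 libraries. Within the siRIPK2 libraries, interferon and RNA-sensing genes were at 0.1659 in siRIPK2_2 against -0.05 to -0.04, and immediate early genes at 0.2918 in siRIPK2_3 against -0.08 to -0.02.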

How the results depend on the processing

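The count of one-sided genes depended on how many libraries had to be on one side and on the size of the gap. Without 1 transfected library the condition is looser by construction: the total of 1734 became 2308 to 2832, the 857 higher 1110 to 1494 and the 877 lower 1142 to 1338, the most without siRIPK2_2. Requiring 1.5-fold left 48 (28 higher, 20 lower) and 2-fold left 11 (7 higher, 4 lower). Other scalings, filters of 1 or 10 CPM, length and GC offsets, and summing overlapping genes (added after seeing the data) gave 783 to 996 higher and 712 to 1103 lower. The 0 edgeR calls became 1 with no filter on low counts, 6 in DESeq2 and 1 in limma-voom, and stayed 0 without any 1 transfected library. Summing overlapping genes reversed NOL12 (-0.0455), BORCS8 (0.17) and IFIT2 (-0.40), in mean log2 difference. List medians moved beyond their spread in 3 cases: small RNA machinery to 0.25 without siRIPK2_3, G12/13 and RHOA signalling to -0.15 and the MiT/TFE list to -0.09 without siRIPK2_4. The cause was not tested. No paired analysis was possible because WT and siNC are 1 library each. WT is 1 library, so its own error is unknown, and depth limits genes near the floor of 3 counts.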
